A study of Mus musculus with 12 samples.

Results

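The immunity-related GTPases (IRG) Irgm1, Irgm2, Igtp and Iigp1 and the guanylate-binding proteins (GBP) Gbp2, Gbp3, Gbp4, Gbp6, Gbp7 and Gbp9 are interferon-inducible GTPases. These 10 genes were taken by their symbols from the 23420 genes of the deposited counts, and all 10 passed the filter on low counts that left 13095 genes for testing. RNA had been sequenced from 12 subcutaneous B16-F10 tumors, 3 in each of 4 groups. The B16-F10 line is a mouse melanoma of C57BL/6 origin, and all hosts were male C57BL/6J mice. Nonobese mice had been fed a control diet and obese mice a Western diet for 15 weeks. Within each diet, mice received either isotype control antibody (clone 2A3) or anti–PD-1 (clone 29F.1A12) at 10 mg/kg. The bulk tumors hold melanoma cells together with host immune, connective and fat cells, so that more cells of a type and more RNA per cell cannot be told apart in these values. The labels name each tumor by a replicate number, and the P values measure only the spread between these tumors.

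Interferons induce both GTPase families through receptor-bound JAK kinases and STAT transcription factors, which bind gamma-activated sites (GAS) and interferon-stimulated response elements (ISRE) near the genes they induce. The proteins assemble on vacuoles that hold intracellular pathogens and help to destroy them. Irgm1, Irgm2 and Igtp (Irgm3) carry a GMS motif and hold effector IRGs such as Iigp1 (Irga6) off the cell's own membranes, whereas GBPs coat pathogen membranes and help to activate inflammasomes. In tumors the same genes serve widely as readouts of interferon exposure. PD-1 is an inhibitory receptor of activated T cells, which are a main source of IFN-γ.

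The genes lie in separate places of the GRCm38 (mm10) assembly, and all are protein coding by RefSeq. Gbp7 (chr3:142530336-142550151), Gbp3 (chr3:142560016-142573213) and Gbp2 (chr3:142620663-142638008) lie in a cluster on the forward strand of chromosome 3. Gbp9 (chr5:105076464-105110357), Gbp4 (chr5:105115767-105139586) and Gbp6 (chr5:105270702-105295871) lie on the reverse strand of chromosome 5. Igtp (chr11:58199556-58207592) and Irgm2 (chr11:58214977-58222783) are neighbors on chromosome 11, and Irgm1 (chr11:48865245-48871420) lies elsewhere on that chromosome.

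The sequences before the transcription starts are shown because members on different chromosomes share the same short motif there. RefSeq promoter windows (GRCm38.p6, 250 bases before to 50 bases after a start) were matched by symbol to 6 of the 10 genes. Iigp1, Gbp4, Gbp6 and Gbp9 were not matched. The 150 bases before the start are printed 5′ to 3′ on the strand of the gene. Capitals mark the ISRE letters, GAAA followed by any 2 bases and GAAA, or the GAS letters TTCNNNGAA, both searched on both strands, so that an ISRE on the other strand reads as a pair of TTTC.
Irgm1 (chr11:48871421-48871570, reverse strand): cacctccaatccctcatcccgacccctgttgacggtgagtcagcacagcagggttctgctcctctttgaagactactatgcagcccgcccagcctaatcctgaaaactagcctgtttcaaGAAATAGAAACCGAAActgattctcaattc
Irgm2 (chr11:58214827-58214976, forward strand): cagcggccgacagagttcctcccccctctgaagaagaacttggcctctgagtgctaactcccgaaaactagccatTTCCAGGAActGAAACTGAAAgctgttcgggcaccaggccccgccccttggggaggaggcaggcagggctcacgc
Igtp (chr11:58199406-58199555, forward strand): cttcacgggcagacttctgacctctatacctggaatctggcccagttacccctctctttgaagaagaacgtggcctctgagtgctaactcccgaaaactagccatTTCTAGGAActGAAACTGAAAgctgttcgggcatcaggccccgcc
Gbp2 (chr3:142620513-142620662, forward strand): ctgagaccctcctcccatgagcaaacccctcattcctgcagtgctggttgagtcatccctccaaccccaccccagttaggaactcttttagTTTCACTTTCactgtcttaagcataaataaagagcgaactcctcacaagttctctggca
Gbp3 (chr3:142559894-142560043, forward strand): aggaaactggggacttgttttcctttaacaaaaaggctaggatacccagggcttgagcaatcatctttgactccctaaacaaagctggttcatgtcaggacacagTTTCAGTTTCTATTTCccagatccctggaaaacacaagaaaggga
Gbp7 (chr3:142530186-142530335, forward strand): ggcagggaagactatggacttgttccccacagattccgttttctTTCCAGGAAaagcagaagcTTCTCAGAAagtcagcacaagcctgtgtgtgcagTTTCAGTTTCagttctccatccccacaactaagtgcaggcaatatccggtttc

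All 6 members with a window held the ISRE letters in the 250 bases before the start, compared with 3.46% of the 27025 genes in the promoter table. In Irgm1 there were 2 matches that overlapped, at -30 to -21 and -24 to -15 from the start, and in Gbp3 there were also 2 overlapping matches, at -45 to -36 and -39 to -30. Single matches stood at -64 to -55 in Irgm2, -34 to -25 in Igtp, -59 to -50 in Gbp2 and -53 to -44 in Gbp7. The printed bases of Gbp3 end at chr3:142560043, past the gene start given above (142560016). The positions in Gbp3 therefore count from the start of its promoter window, which lies inside the gene span given above. A second RefSeq window of Gbp3 held neither motif. The GAS letters were found in 3 of the 6 members, compared with 8.13% of genes. Irgm2 and Igtp each had a GAS directly before the ISRE, at -75 to -67 and -45 to -37, and Gbp7 had 2, at -106 to -98 and -87 to -79. A match describes these letters only and is not a measurement of factor binding.

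The libraries held 14022929 to 33871843 counts on genes. The 10 genes together took 1348 counts in the tumor with the fewest (nonobese anti–PD-1, replicate 1) and 22159 in the tumor with the most (obese anti–PD-1, replicate 2). The lowest single values were 3 counts each of Gbp4 and Gbp9 in the former tumor, which equals the detection floor of 3 counts. Summed markers of melanoma cells ranged from 24709 to 30272 CPM (TMM-normalized counts relative to the library total) over the 12 tumors, in keeping with their label.

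The response to anti–PD-1 in obese mice was examined first. All 10 genes were upregulated by more than 2-fold with an unadjusted P below 0.05, whereas 2.24% of all genes tested rose by this rule. The log2 fold changes ran from 1.44 for Gbp3 to 3.14 for Gbp4, with a median of 2.02 over the members and -0.01 over all genes. None of the 10 had an edgeR FDR below 0.05 (0.192 to 0.521), nor did any other gene in this comparison, in which the lowest FDR was 0.108 and 7.57% of genes had an unadjusted P below 0.05. With DESeq2, 5 of the 10 had an FDR below 0.05, among 105 genes in all.

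Among the IRGs, Irgm1, a regulator of the other IRGs and of autophagy, had the smallest P value. Its levels were 48.3, 53.4 and 60.3 CPM in the obese isotype tumors and 77.5, 307 and 194 CPM in the obese anti–PD-1 tumors (replicates 1, 2 and 3). The groups did not overlap, and replicate 1 of the treated group lay far closer to the isotype tumors than to replicates 2 and 3. The log2 fold change was 1.84 (SE 0.36, edgeR FDR 0.192). Igtp, a GMS regulator on endoplasmic reticulum and lipid droplet membranes, was at 17.96, 15.5 and 18.2 CPM with isotype and at 29.0, 172 and 91.1 CPM with anti–PD-1. This was again a rise in every treated tumor, by a log2 fold change of 2.50 (SE 0.54, edgeR FDR 0.202). Irgm2, the neighboring GMS regulator, showed isotype levels of 21.03, 20.5 and 23.6 CPM and treated levels of 25.9, 108 and 64.7 CPM. Its change was the smallest of the 4 IRGs, at 1.61 (SE 0.41, edgeR FDR 0.244). The effector Iigp1 (chr18:60373616-60392634) was at 7.40, 5.38 and 7.88 CPM with isotype and at 9.09, 78.2 and 39.6 CPM with anti–PD-1. It had the largest log2 fold change of the IRGs, 2.61 (SE 0.70, edgeR FDR 0.281), and replicate 1 exceeded the highest isotype tumor by a factor of only 1.15.

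Within the obese anti–PD-1 group the GBPs showed the same order of tumors as the IRGs. Gbp2, which attacks vacuoles and bacterial surfaces, was at 37.5, 22.9 and 39.1 CPM with isotype and at 41.3, 254 and 143 CPM with anti–PD-1. The groups were separated only narrowly at their edges, and the log2 fold change was 2.14 (SE 0.52, edgeR FDR 0.220). Gbp4 had the largest change of the members, 3.14 (SE 0.83, edgeR FDR 0.281), from 1.68, 2.17 and 3.20 CPM to 5.07, 36.6 and 20.2 CPM. Gbp6 rose by 2.64 (SE 0.61, edgeR FDR 0.206) and Gbp7 by 1.85 (SE 0.42, edgeR FDR 0.206), both without overlap of the groups. Gbp3 had the smallest change, 1.44 (SE 0.42, edgeR FDR 0.330), from 8.24, 6.08 and 9.02 CPM to 9.23, 32.5 and 21.8 CPM. Gbp9, the least abundant member, was at 1.56, 0.629 and 1.38 CPM with isotype and at 1.48, 6.98 and 5.11 CPM with anti–PD-1. It was the single member whose groups overlapped, and its log2 fold change of 1.91 (SE 0.70, edgeR FDR 0.521) lost its call when replicate 2 of either obese group was left out (1.64 and 1.47). Groups did not overlap for 9 of the 10 members, compared with 5.45% of all genes that lay wholly higher in the treated tumors.

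**Figure D1:**
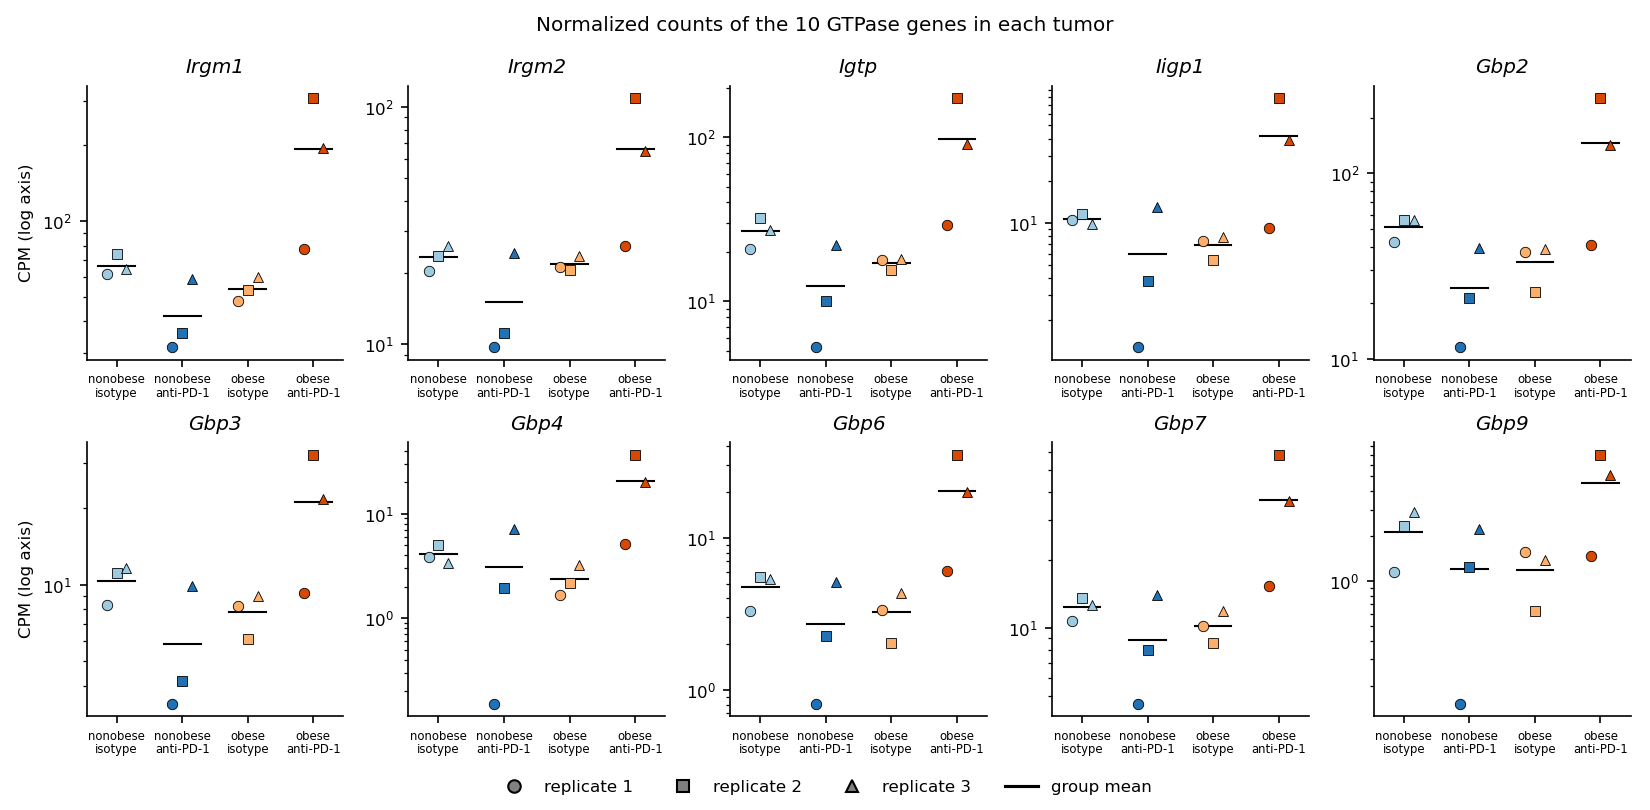
TMM-normalized levels of the 10 genes (CPM, log axis) in the 12 tumors, with a point for each tumor, a marker shape for each replicate number and a black line at the mean of each group of 3. In the obese anti–PD-1 group replicate 2 is the highest and replicate 1 the lowest tumor for all 10 genes, and in the nonobese anti–PD-1 group replicate 3 is the highest and replicate 1 the lowest.

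The size of the obese response rested on 2 of the 3 treated tumors. Replicate 2 was the highest of all 12 tumors and replicate 3 the second highest for every member, and replicate 1 was the lowest of its group for every member. Replicate 2 exceeded replicate 1 by factors of 3.51 (Gbp3) to 8.60 (Iigp1), and replicate 3 exceeded it by 2.36 (Gbp3) to 4.35 (Iigp1). Replicate 1 stood at 0.951 (Gbp9) to 1.60 (Igtp) times the highest obese isotype tumor. Without replicate 1, the median log2 fold change of the members was 2.46 and 7 of them had an edgeR FDR below 0.05, as did 0.569% of all genes in that fit. Without replicate 2 the median was 1.48 and 0 had an FDR below 0.05, although 9 of the 10 still met the fold and unadjusted P thresholds. In the fit without replicate 2, 1.46% of all genes rose by these thresholds.

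In nonobese mice, 0 of the 10 members met the thresholds in either direction, where 0.115% of all genes rose and 2.31% fell. All 10 estimates lay below 0, as did 45.0% of all genes, from -1.11 (Igtp) to -0.41 (Gbp4), with a median of -0.79 beside 0.02 over all genes, and edgeR FDR values were 0.929 to 0.960. At an unadjusted P below 0.05, which 5.23% of genes had, there was also no member, and the smallest P belonged to Gbp2 (0.0529, log2 fold change -1.09, SE 0.51). Gbp2 was at 42.5, 55.8 and 56.2 CPM with isotype and at 11.5, 21.3 and 39.8 CPM with anti–PD-1. Irgm1 was at 61.7, 73.9 and 64.4 CPM with isotype and at 31.6, 35.9 and 58.9 CPM with anti–PD-1. For these 2 genes the treated tumors were all below the isotype tumors, as for 5.37% of genes, and for the other 8 the groups overlapped.

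The spread within the nonobese anti–PD-1 group was wide for all members. Igtp, for example, was at 20.7, 32.0 and 27.4 CPM with isotype and at 5.23, 10.0 and 21.9 CPM with anti–PD-1. Iigp1 went from 10.5, 11.5 and 9.77 CPM to 1.27, 3.83 and 12.9 CPM, and Gbp4 from 3.85, 4.99 and 3.35 CPM to 0.152, 1.95 and 7.13 CPM. Replicate 1 was thus the lowest of all 12 tumors for each of the 10 members, while replicate 3 was within the range of the isotype tumors for Irgm2, Igtp, Gbp3, Gbp6 and Gbp9 and above it for Iigp1, Gbp4 and Gbp7. Leaving out replicate 3 brought 8 members past the thresholds as lower (all but Gbp7 and Gbp9), where 3.58% of all genes fell, with a median of -1.55, and leaving out replicate 1 turned Gbp4 to 0.13.

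The difference between the responses was tested as an interaction of diet and treatment. All 10 members were higher in the obese than in the nonobese response by both thresholds, compared with 4.93% of all genes. The differences ran from 2.25 for Irgm2 (SE 0.58) to 3.61 for Igtp (SE 0.75) on the log2 scale, with a median of 2.96 beside -0.04 over all genes. The edgeR FDR was 0.117 to 0.276, and 0 genes of the 13095 were below 0.05 (12.9% had an unadjusted P below 0.05). DESeq2 gave 5 members an FDR below 0.05, among 283 genes. For Gbp9 the interaction lost its call without replicate 2 of the obese anti–PD-1 group (2.27). The number of members with an FDR below 0.05 was 8 without replicate 1 of the obese anti–PD-1 group, 3 without replicate 3 of the nonobese anti–PD-1 group and 1 without replicate 1 of the nonobese isotype group. The shares of all genes in these fits were 1.48%, 0.279% and 0.832%.

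The diets were also compared within each treatment, in fits that share tumors with the responses above. Under isotype, 0 members met the thresholds, where 0.244% of genes were higher and 1.12% lower in obese mice. All 10 estimates were below 0, as were 47.9% of genes, from -0.80 (Gbp9) to -0.10 (Irgm2), with edgeR FDR values of 0.598 to 0.933 and no member at an unadjusted P below 0.05 (13.3% of genes). The obese tumors were all lower than the nonobese tumors for Irgm1, Igtp, Iigp1, Gbp2 and Gbp4, as for 9.02% of genes. Under anti–PD-1, all 10 members were higher in obese mice by the thresholds, compared with 3.69% of genes, by 1.87 (Gbp3) to 2.98 (Igtp) on the log2 scale. Here Irgm1 (2.20, SE 0.37, edgeR FDR 0.0267), Igtp (2.98, SE 0.55, FDR 0.0408) and Irgm2 (2.14, SE 0.42, FDR 0.0472) were below an FDR of 0.05, as were 0.382% of all genes. Groups did not overlap for Irgm1, Irgm2, Igtp, Gbp2, Gbp6 and Gbp7, compared with 6.54% of genes. The 3 FDR calls were lost (0 members) when any of replicates 1 and 2 of the nonobese or 2 and 3 of the obese anti–PD-1 group was left out, and rose to 9 without replicate 3 of the nonobese and to 8 without replicate 1 of the obese anti–PD-1 group, where 0.700% and 1.60% of all genes were below 0.05. With a robust prior (0.328% of all genes) and in the fit of only these 6 tumors (0 genes), 0 members were below an FDR of 0.05, and with the replicate number as a block 7 were, as were 0.725% of all genes.

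**Figure D2:**
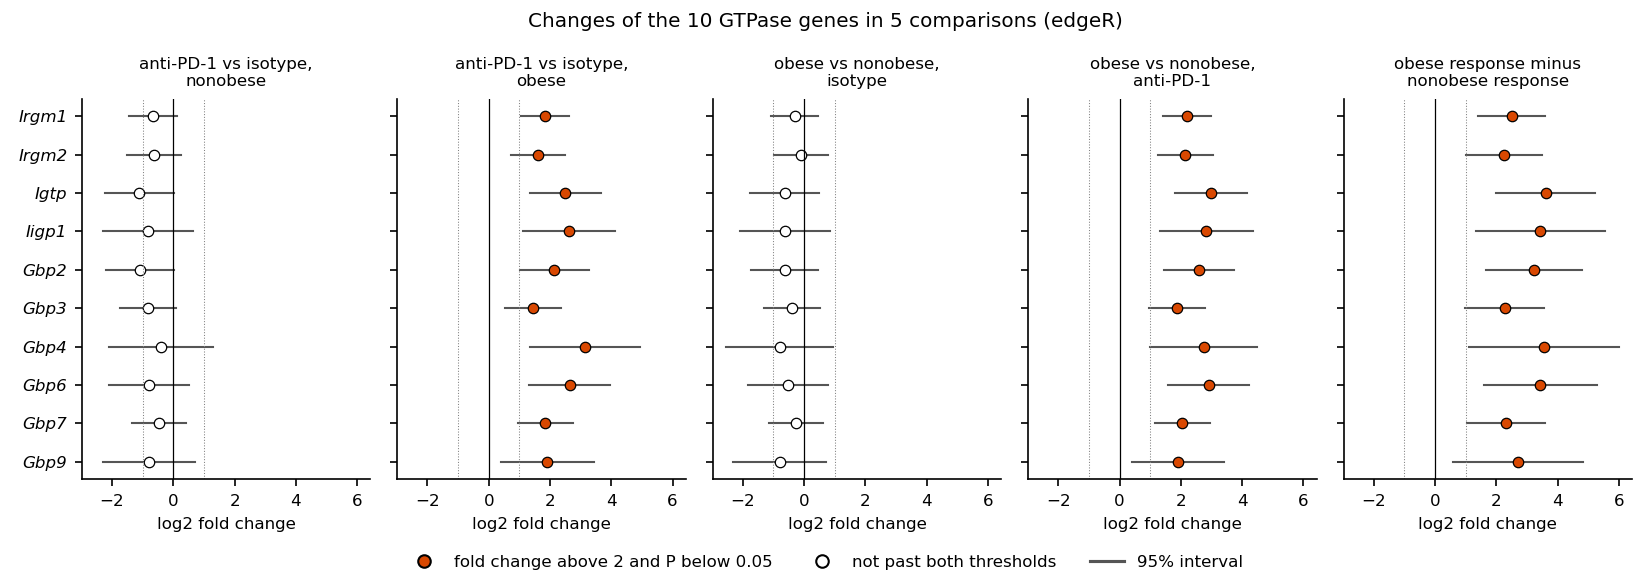
Log2 fold changes of the 10 genes from edgeR in 5 comparisons (x axis), with 95% intervals from the F-test, filled points for genes past the fold and unadjusted P thresholds and dotted lines at a fold change of 2 in either direction. All 10 points are filled for the obese response (1.44 to 3.14), for obese against nonobese mice under anti–PD-1 (1.87 to 2.98) and for the difference between the responses (2.25 to 3.61), and none for the other 2 comparisons.

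The members varied together from tumor to tumor. Over the 12 tumors, Pearson's r of log2 CPM between members was 0.825 to 0.993 in the 45 pairs, with a median of 0.968. After the group means were subtracted it was 0.722 to 0.991, with a median of 0.946. These values describe the same libraries and carry no test. The mean of the 10 centered log2 levels was -0.21 to 0.23 in the nonobese isotype tumors and -0.77 to -0.20 in the obese isotype tumors. It was -2.18, -1.004 and 0.13 in replicates 1, 2 and 3 of the nonobese anti–PD-1 group and 0.10, 2.46 and 1.71 in those of the obese anti–PD-1 group. The lowest values were thus those of replicates 1 and 2 of the nonobese anti–PD-1 group and the highest those of replicates 2 and 3 of the obese anti–PD-1 group. Replicate 3 of the nonobese anti–PD-1 group lay within the range of the nonobese isotype tumors, and replicate 1 of the obese anti–PD-1 group lay above all 3 obese isotype tumors. The ratio of the highest to the lowest tumor was 9.53 for Gbp3, 9.71 for Irgm1, 22.0 for Gbp2, 61.5 for Iigp1 and 240 for Gbp4, the last of which rests on the 3 counts in its lowest tumor.

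**Figure D3:**
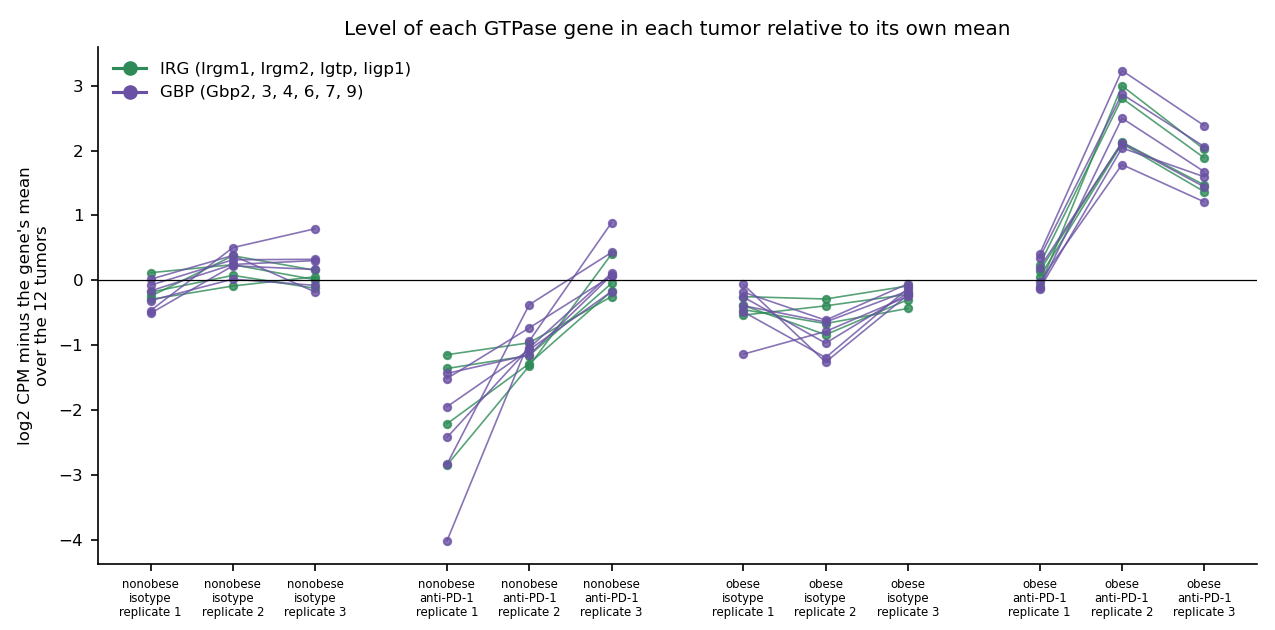
Log2 CPM of each gene minus its mean over the 12 tumors (y axis) for each tumor (x axis), with IRGs in green and GBPs in purple. Lines join the values of a gene within a group and stand for no order, and the means over the 10 genes run from -2.18 in replicate 1 of the nonobese anti–PD-1 group to 2.46 in replicate 2 of the obese anti–PD-1 group.

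The 5 other genes whose levels followed the mean of the members most closely over the 12 tumors were Tap1 (r = 0.991), Cxcl9 (0.988), Tgtp2 (0.987), Ifi47 (0.979) and Tgtp1 (0.9751). Tap1 is a subunit of the peptide transporter of antigen presentation, Cxcl9 is an IFN-γ–induced chemokine that attracts T cells, and the other 3 are IRG genes.

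Levels were compared between members per length, as RPKM, the CPM divided by the kilobases of exon in the union of a gene's GENCODE transcripts. Gbp2 had the highest RPKM in every group, 20.5 ± 3.09 (SD, n = 3) in nonobese isotype, 9.62 ± 5.70 in nonobese anti–PD-1, 13.2 ± 3.56 in obese isotype and 58.1 ± 42.3 in obese anti–PD-1 tumors. Igtp and Irgm1 followed and overlapped each other in all 4 groups, and Irgm2 came next. In nonobese isotype tumors they were followed by Gbp3 (3.17 ± 0.535 RPKM), Gbp7 (2.19 ± 0.254) and Iigp1 (1.82 ± 0.148), with overlap between the latter 2. Gbp6, Gbp4 and Gbp9 were the lowest in every group, and neighbors among them overlapped. In obese anti–PD-1 tumors Iigp1 (7.26 ± 5.95 RPKM) stood before Gbp7 and Gbp3, and all neighbors in the order overlapped. With the length of the longest transcript instead, Irgm1 stood before Igtp in all 4 groups, and it also stood before Gbp2 in nonobese anti–PD-1 and obese isotype tumors (14.1 RPKM in the latter). The IRGs made up 52.6% to 63.8% of the summed RPKM of the 10 genes over the 12 tumors, so that their share stayed within a narrow range while the sum ran from 17.5 to 314 RPKM.

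By position, the chromosome 3 genes changed by 1.44 to 2.14 (median 1.85) and the chromosome 5 genes by 1.91 to 3.14 (median 2.64) in the obese response, on the log2 scale. Of 20 tested genes flanking the members, chosen after the members' values were seen, 1 rose in obese mice, beside 2.24% of all genes. This gene was Gm12185 (log2 fold change 3.59), and the median of the 20 was 0.06. In nonobese mice 1 of the 20 was called, Gm5431 (log2 fold change -2.97), where 2.31% of all genes fell. Gm12185 and Gm5431 both lie beside Irgm1. Whether they belong to the IRG family was not tested, so neither can be read as an unrelated neighbor. Some members share sequence with other genes, so that their reads may be split. Of the 100-base windows in its exons, 64.5% of Gbp6's recur in Gm43302 or Gbp10 or other GBP genes, which makes Gbp6 uncertain. The share was 10.0% for Gbp7, 5.16% for Igtp, 3.01% for Irgm2, at most 1.65% for Gbp3, Gbp4 and Gbp9, and 0 for Irgm1, Iigp1 and Gbp2.

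Other genes of the IRG and GBP families were examined by the same thresholds. Of 18 listed, 10 were tested, and 9 of these rose and 0 fell in obese mice, with a median log2 fold change of 2.92. Of all genes, 2.24% rose and 0.206% fell. In nonobese mice 0 of the 10 met the thresholds (median -0.58), where 0.115% of all genes rose and 2.31% fell. The IRGs Tgtp1 and Tgtp2 rose by 3.19 and 2.87, and their reads are hard to separate because they are near copies. Ifi47 rose by 2.46, Gm12250 by 3.10, Gm4951 by 2.97 and Gm4841 by 4.12, and among the GBPs Gbp5, which promotes inflammasome assembly, rose by 2.02, Gbp8 by 1.89 and Gbp10 by 3.88. The exception was Irgq, at 60.3 ± 13.3 CPM in obese isotype and 47.4 ± 11.2 CPM in obese anti–PD-1 tumors (SD, n = 3 each, log2 fold change -0.35, edgeR FDR 0.754). In obese mice the treated tumors were all higher for 6 of the 10 tested genes, compared with 5.45% of all genes. Gm4841 had 0 to 8 counts and Gbp10 3 to 6 in the obese isotype tumors, beside a floor of 3 counts. Their fewest counts in an obese anti–PD-1 tumor were 5 and 3. For Gbp5 the lowest obese anti–PD-1 tumor (1.34 CPM) was below all obese isotype tumors (1.47 to 2.29 CPM).

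Upstream of the GTPases, 25 of 30 listed interferon pathway genes were tested. Of these, 6 rose and 0 fell in obese mice, compared with 2.24% and 0.206% of all genes. None (0) changed in nonobese mice, where 0.115% of all genes rose and 2.31% fell. The ligand Ifng did not pass the filter on low counts. Of the 7 receptors and JAK kinases none met the thresholds, with log2 fold changes of -0.23 (Ifnar1) to -0.03 (Jak1). Of 10 transcription factors and coactivators, 5 rose, namely Irf1 (1.00), Irf8 (1.60), Nlrc5, the activator of MHC class I genes (2.01), Ciita, the activator of MHC class II genes (1.94), and Batf2 (2.63). Irf1 was barely past the fold threshold (edgeR FDR 0.561). Its groups overlapped, as did those of Ciita and Batf2. Of 7 inhibitors of the signal, Usp18, which restrains type I interferon receptors, rose (1.18).

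Downstream, 23 genes that act with IRGs and GBPs at vacuoles or inflammasomes were tested, and 1 of them rose in obese mice, beside 2.24% of all genes. None of 10 genes of ATG8 conjugation, the lipidation system that guides IRGs and GBPs to membranes, met the thresholds, and their log2 fold changes were -0.24 to 0.16. Of 6 ubiquitin adaptors none did, with -0.02 for Sqstm1 and -0.07 for Nbr1, the pair with the highest mean CPM (not per length). The largest of the 6 values, named after it was seen, was 0.64 for Trim21, with an unadjusted P of 0.0189. Casp1, the inflammasome protease, rose by 1.40 in obese mice (SE 0.57, edgeR FDR 0.581) and fell by 1.91 in nonobese mice (SE 0.59, edgeR FDR 0.833). Gsdmd, the pore-forming substrate of inflammatory caspases, had a log2 fold change of 0.92 in obese mice and a difference between responses of 1.27 that met both thresholds (edgeR FDR 0.149).

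**Figure D4:**
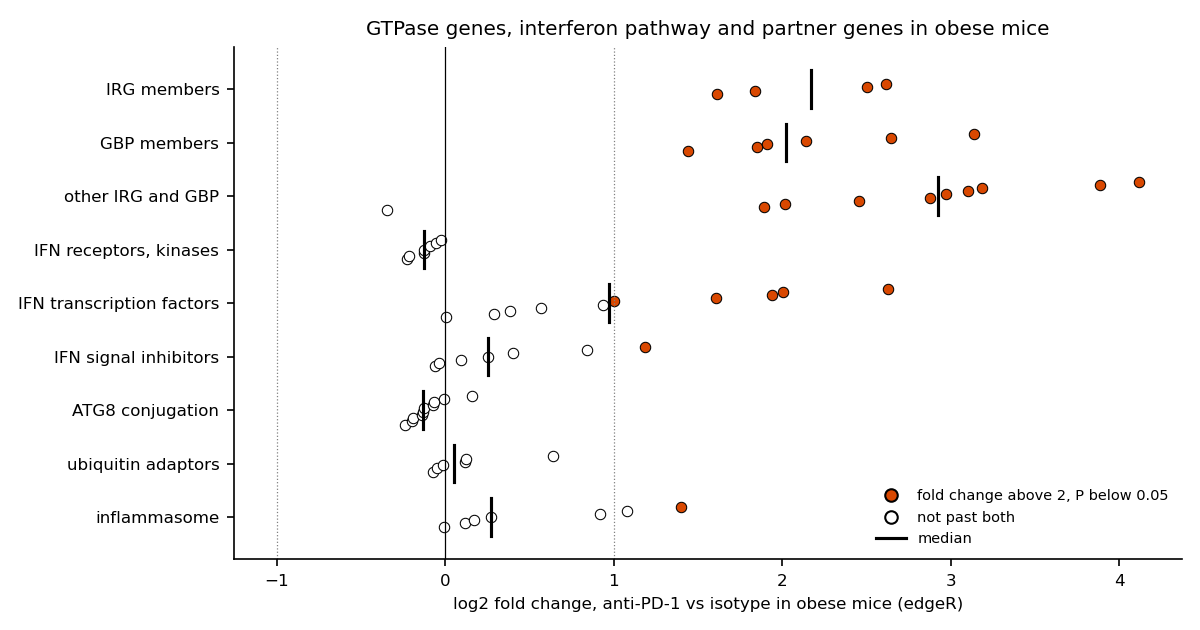
Log2 fold changes of anti–PD-1 against isotype in obese mice (x axis, edgeR) for the members, the other tested IRG and GBP genes, interferon pathway genes and partner genes, with a point for each gene, a bar at the median of each list and filled points for genes past the fold and unadjusted P thresholds. Members lie between 1.44 and 3.14, whereas receptors and kinases lie between -0.23 and -0.03 and ATG8 conjugation genes between -0.24 and 0.16.

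Markers of immune and other cells also differed between these tumors. By the same thresholds, 2.24% of all genes rose in obese mice and 2.31% fell in nonobese mice. Summed T cell markers (8 of 9 listed genes were in the table) were at 5.24 to 7.16 CPM in obese isotype tumors and at 8.25, 20.0 and 18.8 CPM in replicates 1, 2 and 3 of the obese anti–PD-1 group, and 5 of the 7 that were tested rose. Their log2 fold changes were 2.75 (Cd8b1) to 4.93 (Cd3d). These rest on low counts, with a floor of 3 counts. Cd3d had 0 to 2 counts in the obese isotype tumors and 10 to 38 in the obese anti–PD-1 tumors. For Cd8b1 the counts were 1 to 8 and 4 to 39. Lck, which was not called (0.23), averaged 4.73 CPM with isotype and 5.55 CPM with anti–PD-1. The sums therefore changed less than the markers that rose. NK cell markers were at 0.668 to 0.967 CPM and at 1.62, 11.3 and 5.56 CPM in the same tumors, with 2 of 3 tested genes rising. These were Prf1 (4.22) and Gzmb (3.56), whereas Eomes (0.54) did not meet the thresholds. Ncr1, Klrb1c and Klrk1 of this list did not pass the filter on low counts. In the obese anti–PD-1 tumors they averaged 0.0879, 0.305 and 0.731 CPM, and Prf1 and Gzmb averaged 2.86 and 1.64 CPM. Whether NK cells or T cells held the Prf1 and Gzmb RNA was not tested, so the sum does not single out NK cells. Both lists had their lowest treated value in replicate 1, the tumor with the lowest level of all 10 GTPases in that group. Replicate 1 was also the lowest of the 3 tumors for macrophage, dendritic cell, B cell, endothelial, fibroblast and skeletal muscle markers, but not for adipocyte, neutrophil or melanoma markers. Skeletal muscle markers summed to 38.6, 253 and 565 CPM in these tumors and to 10.5, 17.6 and 125 CPM in the obese isotype tumors. Fibroblast markers summed to 431, 1447 and 1874 CPM in the same treated tumors. Summed macrophage markers were at 153 to 294 CPM with isotype and 223, 462 and 491 CPM with anti–PD-1 in obese mice, and 1 of 10 rose. In nonobese mice macrophage markers were at 209 to 457 CPM with isotype and 147 to 192 CPM with anti–PD-1, where 5 of 10 fell and replicate 1 was again the lowest tumor. Fibroblast markers in the nonobese tumors summed to 624, 2480 and 2815 CPM with isotype and 291, 567 and 556 CPM with anti–PD-1, and 5 of 7 fell. Skeletal muscle markers there summed to 15.9, 335 and 300 CPM with isotype and 7.32, 184 and 340 CPM with anti–PD-1. T cell markers summed to 5.55, 8.34 and 7.67 CPM and to 5.08, 6.62 and 6.11 CPM in these groups. NK cell markers summed to 1.03, 2.56 and 2.10 CPM and to 0.661, 0.680 and 1.43 CPM. All 6 adipocyte markers rose in obese mice, from summed levels of 15.3 to 22.9 CPM to 60.7, 33.4 and 74.6 CPM, with replicate 2 as the lowest treated tumor. All 6 estimates were below 0 in nonobese mice, where 2 fell (Adipoq and Cidec). The sums there were 16.2 to 32.2 CPM with isotype and 14.3 to 21.6 CPM with anti–PD-1. No T cell or macrophage marker in the table was at 0 throughout any group, and 0 of 7 melanoma markers changed in either diet. The part of these cell types in the GTPase levels was not tested.

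**Figure D5:**
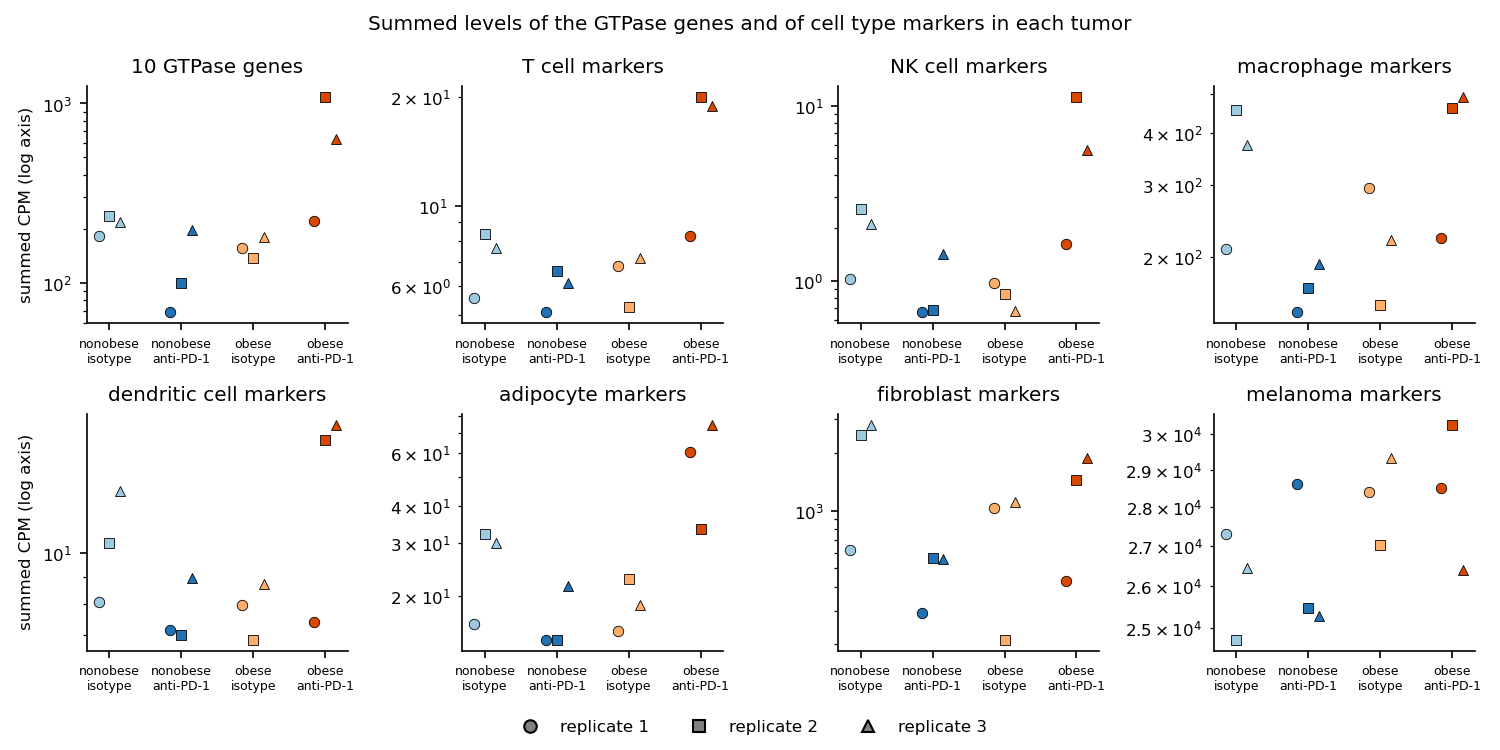
Summed CPM (log axes) of the 10 GTPase genes and of 7 lists of cell type markers in the 12 tumors, with a point for each tumor and a marker shape for each replicate number. In the obese anti–PD-1 group, replicate 1 has the lowest sum for the GTPases and for T cell (8.25 CPM), NK cell (1.62 CPM), macrophage (223 CPM), dendritic cell (7.40 CPM) and fibroblast (431 CPM) markers, but not for melanoma markers or for adipocyte markers, of which replicate 2 has the lowest sum (33.4 CPM).

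Across all tested genes with a RefSeq promoter window, 10.3% of the 310 with the ISRE letters rose in obese mice, compared with 1.69% of the 9443 without them. For the GAS letters the shares were 3.97% of 706 genes and 1.81% of 9047. These shares include the 6 members shown above and are given as a description.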

How the data were processed

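RNA of 12 B16-F10 tumors was sequenced by the authors from stranded poly(A) libraries as single-end reads, checked with FastQC 0.11.5, aligned to mm10 with STAR 2.7.0f and counted with HTSeq 0.9.1. The deposited values are raw counts per gene symbol, whole numbers without normalization. Whether HTSeq used strand is not given in the sources used here, so genes that overlap on opposite strands are uncertain. Totals were 14022929 to 33871843 counts, and floors of 3 counts cover counting error only. No column was left unused (0).

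Genes were filtered with filterByExpr, scaled by TMM and tested with the quasi-likelihood F-test of edgeR 4.0.16 (legacy form, 4 group means, all 12 tumors), and Benjamini-Hochberg FDR values were computed over 13095 genes. Genes past a fold change of 2 and an unadjusted P of 0.05 were called, after the thresholds of the study's methods. With 3 tumors against 3, an exact permutation test cannot go below 0.1. The code was tested on simulated data. The members and gene lists were chosen with earlier results of these data known. All 10 members are named, with called genes and the most abundant genes of each role from the other lists and the 5 genes most alike. RPKM used exon lengths of GENCODE vM21, and promoters came from RefSeq (GRCm38.p6). Deviations of same-numbered tumors from their group means correlated at 0.11 to 0.44 between the anti–PD-1 groups, each over 0.1, so that the replicate number may pair these tumors, although the labels give only a number. Differently numbered tumors of these groups correlated at -0.44 to 0.12, so some of them were over 0.1 as well. Between all groups, 13 of 36 differently numbered pairs were over 0.1, compared with 10 of 18 same-numbered pairs. Alternatives were DESeq2 1.42.0, RLE scaling, other filters, other forms of the model, a replicate block and leaving out each tumor. A gene of the interferon pathway list is not reported here by name.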

Additional observations from a re-analysis of the deposited data

Results flagged for a closer look

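The response to anti–PD-1 differed between obese and nonobese mice for all 10 genes by the interaction test in edgeR at an unadjusted P below 0.05, and for none of them at an FDR below 0.05. The obese response exceeded the nonobese response by 2.50 for Irgm1, 2.25 for Irgm2, 3.61 for Igtp and 3.44 for Iigp1 on the log2 scale. Among the GBPs it was 3.22 for Gbp2, 2.27 for Gbp3, 3.55 for Gbp4, 3.43 for Gbp6, 2.32 for Gbp7 and 2.70 for Gbp9. The share of all genes past the fold and unadjusted P thresholds in this direction was 4.93%.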

How the results depend on the processing

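The number of members higher in the obese response, in the difference between responses and in obese mice under anti–PD-1 was 8 to 10 under every alternative run, with 8 being all the members left by a filter of 10 counts in every tumor, and 9 to 10 when a tumor was left out. The shares of all genes higher in the reported fits of these comparisons were 2.24%, 4.93% and 3.69%. The count of members lower in nonobese mice, 0 in the reported fit, was 2 with no filter on low counts (2.31% of all genes), 1 with at least 10 counts in every tumor (1.44%), 2 in fits of only the 6 tumors compared (2.11%) and 0 to 8 with a tumor left out. The number with an FDR below 0.05 depended on the model. With DESeq2 it was 5 in the obese response, 5 in the difference between responses and 8 in obese mice under anti–PD-1 (0.802%, 2.16% and 2.06% of all genes). With no filter it was 3 in the difference and 8 under anti–PD-1 (0.314% and 0.594%). Under anti–PD-1 it was 6 with the current form of glmQLFit (0.664%), 0 with a robust prior and 0 in fits of the 6 tumors. With a tumor left out it was 0 to 7 in the obese response, 0 to 8 in the difference and 0 to 9 under anti–PD-1. The cause was not tested.

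The replicate block gave 2 members lower in nonobese mice (Igtp and Gbp2, with 2.67% of all genes) and 7 with an FDR below 0.05 under anti–PD-1, and a median of 1.81 in the obese response. Tumors of the same number come from different mice. All 3 same-number correlations were over 0.1 between the anti–PD-1 groups and between the nonobese isotype and obese anti–PD-1 groups (0.18 to 0.56), which are compared only within the difference between responses. In the other 4 pairs of groups they were -0.26 to 0.55 and not all over 0.1, so in the comparisons that use these pairs, the difference between responses included (10 of 18 over 0.1), the tumors share only a number. The block changed no other count of members by more than 1.5 times.

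With a tumor left out, the only estimate of a member that turned sign was Gbp4 in nonobese mice, which ranged from -1.86 to 0.13. The estimates of Jak1 (-0.111 to 0.0509), Sqstm1 (-0.031 to 0.012) and Nbr1 (-0.132 to 0.0517) in the obese response, all near 0, also changed sign, and Sqstm1 was 0.011 with at least 10 counts in every tumor. Among the values followed for genes other than the members, 21 lost their call under an alternative and 4 gained one. Another 10 turned sign and 416 stayed the same. Gbp4 and Gbp9, with 3 counts in a tumor, are limited most by depth. By the longest transcript, 12 of 40 mean RPKM values moved by more than 1 SD.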
